A study of Mus musculus with 4 samples.

Results

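Transcripts of 33 unfolded protein response genes were followed in the small intestinal epithelium of mice fed a control or a ketogenic diet. The genes were chosen by name from the 27998 genes of the count matrix: 4 stress sensors, 4 transcription factors, 4 targets of the factor ATF4, 9 chaperones and cochaperones, 5 disulfide isomerases and lectin chaperones, and 7 genes of endoplasmic reticulum-associated degradation. Each of the 33 had at least 1 UMI (unique molecular identifier, the tag that counts a captured RNA molecule).

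The endoplasmic reticulum folds proteins bound for secretion and for membranes, and the unfolded protein response adjusts its capacity. Sensors in its membrane, the kinases IRE1 (Ern1 and Ern2) and PERK (Eif2ak3) and the membrane-tethered factor ATF6, act when unfolded protein accumulates: IRE1 splices Xbp1 mRNA, PERK slows translation while favouring that of Atf4, and ATF6 is released by cleavage. The resulting transcription factors induce chaperones and the genes that return misfolded protein to the cytosol for degradation, and goblet and Paneth cells, which secrete mucus and antimicrobial proteins, hold an extensive endoplasmic reticulum. Tags at the 3' end of a transcript report its amount, and not the splicing of Xbp1, the translation of Atf4 or the cleavage of ATF6.

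Each diet had 2 libraries of dissociated small intestine made with the 10x 3' v2 chemistry. The deposited cell table lists the animals as male mice, and the sources used here give no strain, age or time on the diet. The number of mice behind a library is not stated either, so a p-value reflects library-to-library spread, some of which may be technical. Libraries held 3194 to 4896 cells and 27316428 to 34106639 UMIs, and any pair of libraries shared 10 to 26 cell barcodes.

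Cells carried 1 of 7 deposited cell types. Summed UMIs per library ranged from 14946235 to 19465885 in enterocytes, from 3762581 to 5642295 in transit amplifying cells, from 3815227 to 4330346 in goblet cells and from 1712487 to 3400566 in stem cells. The 3 rarest types were far shallower, with 380502 to 1235533 in enteroendocrine, 582559 to 874921 in tuft and 289338 to 526414 in Paneth class cells. Levels are given as CPM, a gene's UMIs per 1000000 UMIs of a library in that cell type after TMM scaling, and changes as log2 fold changes of ketogenic against control with their standard error (SE, 2 libraries per diet). The summed markers of stem, transit amplifying, enterocyte, enteroendocrine and tuft cells were highest in the type so named, in every library. The class labelled Paneth went partly against its label: its 9 goblet markers summed to 61184 to 100789 CPM, overlapping the 71562 to 86866 CPM of goblet cells, while its 8 Paneth markers summed to 83490 and 39290 CPM in control and 289845 and 180645 CPM in ketogenic libraries.

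Promoter sequences are shown first for the genes on which the diet results turn. RefSeq windows on GRCm38.p6 (the same assembly as mm10), from 250 bases before to 50 bases after the annotated start, were at hand for 28 of the 33 genes. They were searched on both strands for the ERSE (CCAAT and CCACG with 9 bases between them), the endoplasmic reticulum stress element bound by ATF6 with the factor NF-Y, the shorter ERSE-II (ATTGG and CCACG with 1 base between them), the UPRE (TGACGTGG), bound by spliced XBP1 and by ATF6, and the CARE (TGATGNAA), an amino acid response element bound by ATF4 with C/EBP proteins. The 250 bases before the start are printed below 5' to 3' on the strand of the gene, with matches in capitals, for Hspa5 (chr2:34771840-34772089, plus strand), Creld2 (chr15:88819396-88819645, plus strand), Hsp90b1 (chr10:86705445-86705694, minus strand) and Herpud1 (chr8:94386179-94386428, plus strand).
Hspa5: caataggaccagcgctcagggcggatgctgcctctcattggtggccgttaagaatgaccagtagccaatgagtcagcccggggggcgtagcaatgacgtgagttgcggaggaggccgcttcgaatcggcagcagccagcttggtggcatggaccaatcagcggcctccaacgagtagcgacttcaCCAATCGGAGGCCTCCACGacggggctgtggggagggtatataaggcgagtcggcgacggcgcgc
Creld2: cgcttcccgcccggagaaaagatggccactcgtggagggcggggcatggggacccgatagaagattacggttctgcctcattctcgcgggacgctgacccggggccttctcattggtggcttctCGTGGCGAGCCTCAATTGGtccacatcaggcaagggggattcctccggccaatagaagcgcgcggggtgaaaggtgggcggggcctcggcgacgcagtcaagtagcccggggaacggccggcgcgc
Hsp90b1: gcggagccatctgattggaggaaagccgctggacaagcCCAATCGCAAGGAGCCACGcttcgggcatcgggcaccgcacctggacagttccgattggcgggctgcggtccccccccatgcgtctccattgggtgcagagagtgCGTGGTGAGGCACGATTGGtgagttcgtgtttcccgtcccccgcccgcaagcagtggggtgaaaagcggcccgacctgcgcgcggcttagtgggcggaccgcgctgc
Herpud1: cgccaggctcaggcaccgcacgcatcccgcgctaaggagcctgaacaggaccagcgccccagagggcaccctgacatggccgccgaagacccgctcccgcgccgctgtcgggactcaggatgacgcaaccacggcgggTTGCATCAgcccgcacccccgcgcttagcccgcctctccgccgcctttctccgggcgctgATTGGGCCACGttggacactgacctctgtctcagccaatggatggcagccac
In Hspa5 the capitals mark an ERSE that begins 65 bases before the start. Creld2 holds an ERSE on the opposite strand, and Hsp90b1 holds 2, 1 on each strand. Herpud1 differs from these 3 genes: it holds an ERSE-II that begins 52 bases before the start and a CARE, on the opposite strand, that begins 112 bases before it, and no match to the full ERSE.

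An ERSE was found in 9 of the 28 windows of the set, against 0.137% of the 27025 genes in the table, and an ERSE-II in 2 of 28, against 0.0444%. The remaining matches are listed because they show how the fixed ends (capitals) are kept while the spacer (lower case) varies, each in the orientation of the motif. The match of Dnajb11 is an ERSE-II and lies 7 bases after its start, and the others are ERSE.
Calr: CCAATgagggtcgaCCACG
Canx: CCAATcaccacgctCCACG
Derl3: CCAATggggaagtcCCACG
Dnajc3: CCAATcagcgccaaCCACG
Pdia6: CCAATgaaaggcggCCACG
Syvn1: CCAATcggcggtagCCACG
Dnajb11: ATTGGcCCACG
The CARE was found in 5 of 28 windows, against 4.51% of genes: those of Asns, Atf3, Chac1, Trib3 and Herpud1. The first 4 of these are a synthetase of asparagine, a stress-induced transcription factor, a glutathione-degrading enzyme and a pseudokinase that restrains ATF4. No window of the set held the UPRE letters, which occurred in 0.714% of genes. None of the matches in the set overlapped another, and a match is a description of letters, not evidence of binding.

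Across cell types the genes were highest in goblet cells. By mean CPM over the 4 libraries, 23 of the 33 peaked in goblet cells, and for 14 of these every goblet library lay above every library of all other types. Cell types were assigned from these same cells, so these levels are a description without a test. TMM scaling was done within each type, so the levels of different types share no common scaling. Low counts of a gene in another type can also be RNA carried over between droplets: stem cells, which do not make mucus, showed 517 to 614 CPM of the 9 goblet markers, and the part of such RNA in these levels was not tested. In these sums, fewer expressing cells within a type and less RNA per cell cannot be told apart.

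Among the sensors, Ern2, the IRE1 paralog of mucus-secreting epithelium, had the sharpest distribution, with 130 to 146 CPM in goblet and 80.7 to 113 CPM in Paneth class libraries. Tuft libraries followed at 27.4 to 37.8 CPM, and stem, transit amplifying and enterocyte libraries stood at 0.716 to 3.56 CPM, with enteroendocrine libraries at 0 to 8.36 CPM. The libraries of neighbours in this order did not overlap down to tuft cells, while the 4 types below them overlapped one another. Ern1, its ubiquitous counterpart, was low throughout, with mean levels from 2.08 CPM in tuft to 9.12 CPM in goblet cells. Tuft libraries, at 0 to 3.44 CPM, lay below those of every other type except stem cells (2.45 to 5.81 CPM). In tuft libraries 3 counts are 3.43 to 5.15 CPM, so this order rests on few counts. The other sensors did not peak in goblet cells. For Atf6, enteroendocrine libraries held 41.8 to 69.4 CPM, above the 21.8 CPM of the highest goblet library. Eif2ak3, the PERK kinase, stayed at 15.4 CPM or less in every library and type, and its highest mean, 9.97 CPM in the Paneth class, overlapped the goblet libraries (mean 9.69 CPM).

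**Figure D1:**
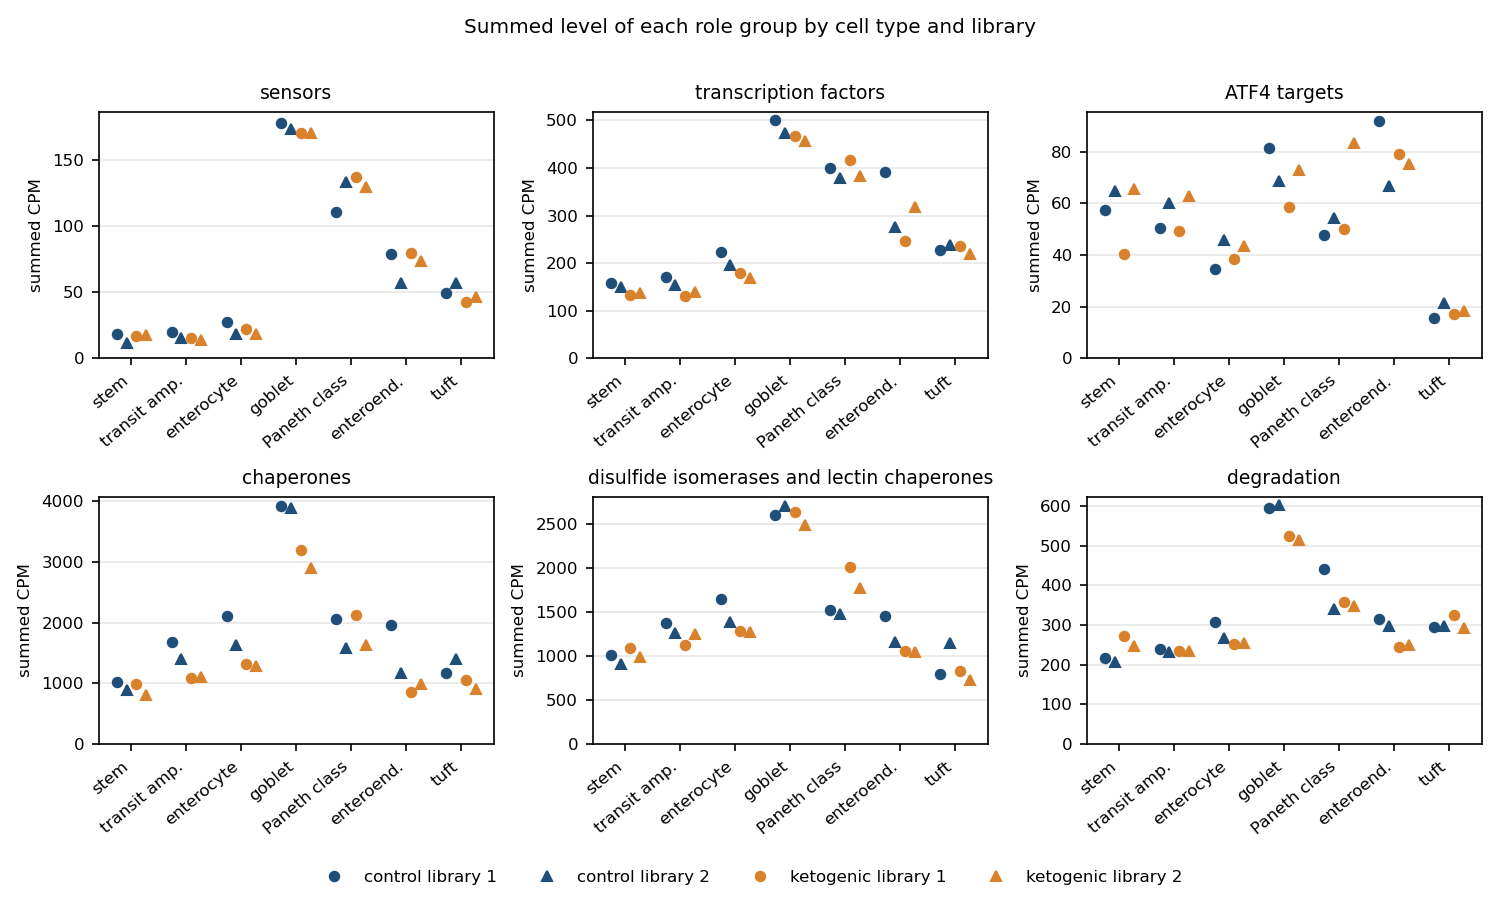
Summed CPM (y axis) of the genes of each role in the 7 cell types (x axis), 1 point per library, circles and triangles for libraries 1 and 2 and colour for diet. Goblet cells stand highest for 5 of the 6 roles, and the chaperones of goblet cells separate by diet, with 3918 and 3896 CPM in control and 3200 and 2906 CPM in ketogenic libraries.

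Xbp1, whose spliced form drives expansion of the secretory apparatus, had 280 to 292 CPM in goblet libraries, above the 260 CPM of the highest enteroendocrine and the 255 CPM of the highest Paneth class library. Below these came tuft cells (121 to 165 CPM), enterocytes (84.5 to 121 CPM), transit amplifying cells (55.7 to 90.8 CPM) and stem cells (51.1 to 75.8 CPM). Tuft libraries overlapped the enteroendocrine ones and lay just above every enterocyte library, transit amplifying cells overlapped both of their neighbours, and enterocytes lay above stem cells without overlap. Atf4 was also highest in goblet cells, at 161 to 181 CPM, with Paneth class libraries at 137 to 150 CPM and stem, transit amplifying and tuft libraries at 61.6 to 84.6 CPM. Ddit3, which encodes the proapoptotic factor CHOP, was low throughout, from 5.08 CPM in a stem to 25.4 CPM in a goblet library. The ATF4 targets Trib3 and Chac1 and the factor Atf3 were near the limit of detection, with means of at most 1.54 CPM in any type, while Sesn2, an inhibitor of mTORC1 signalling, peaked in enteroendocrine cells at 23.7 to 33.4 CPM.

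Of the 9 chaperones and cochaperones, 8 had their highest mean in goblet cells, and Dnajb9, a cochaperone of BiP, had it in tuft cells. Hspa5 encodes BiP, the central chaperone of the compartment and a brake on the sensors, and had 719 to 1156 CPM in goblet libraries against 203 to 339 CPM in stem libraries. Manf, a secreted protein retained with BiP, had 705 to 889 CPM in goblet and 112 to 159 CPM in stem libraries. Derl3, a derlin of the degradation channel, was sparse: it had 2.26 to 7.18 CPM in goblet libraries, and 0 UMIs in at least 1 library of each other type. A count of 0 allows up to 3 counts, which is 1.56 CPM in the shallower control stem library, and this limit covers counting error only. It is 5.70 to 10.4 CPM in Paneth class, 2.43 to 7.88 CPM in enteroendocrine and 3.43 to 5.15 CPM in tuft libraries. A 0 in these types therefore does not set them apart from goblet cells. The highest Paneth class and enteroendocrine libraries had 5.98 and 7.43 CPM of Derl3. Derl1 and Canx, the membrane-bound lectin chaperone calnexin, had their highest means in enterocytes instead.

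**Figure D2:**
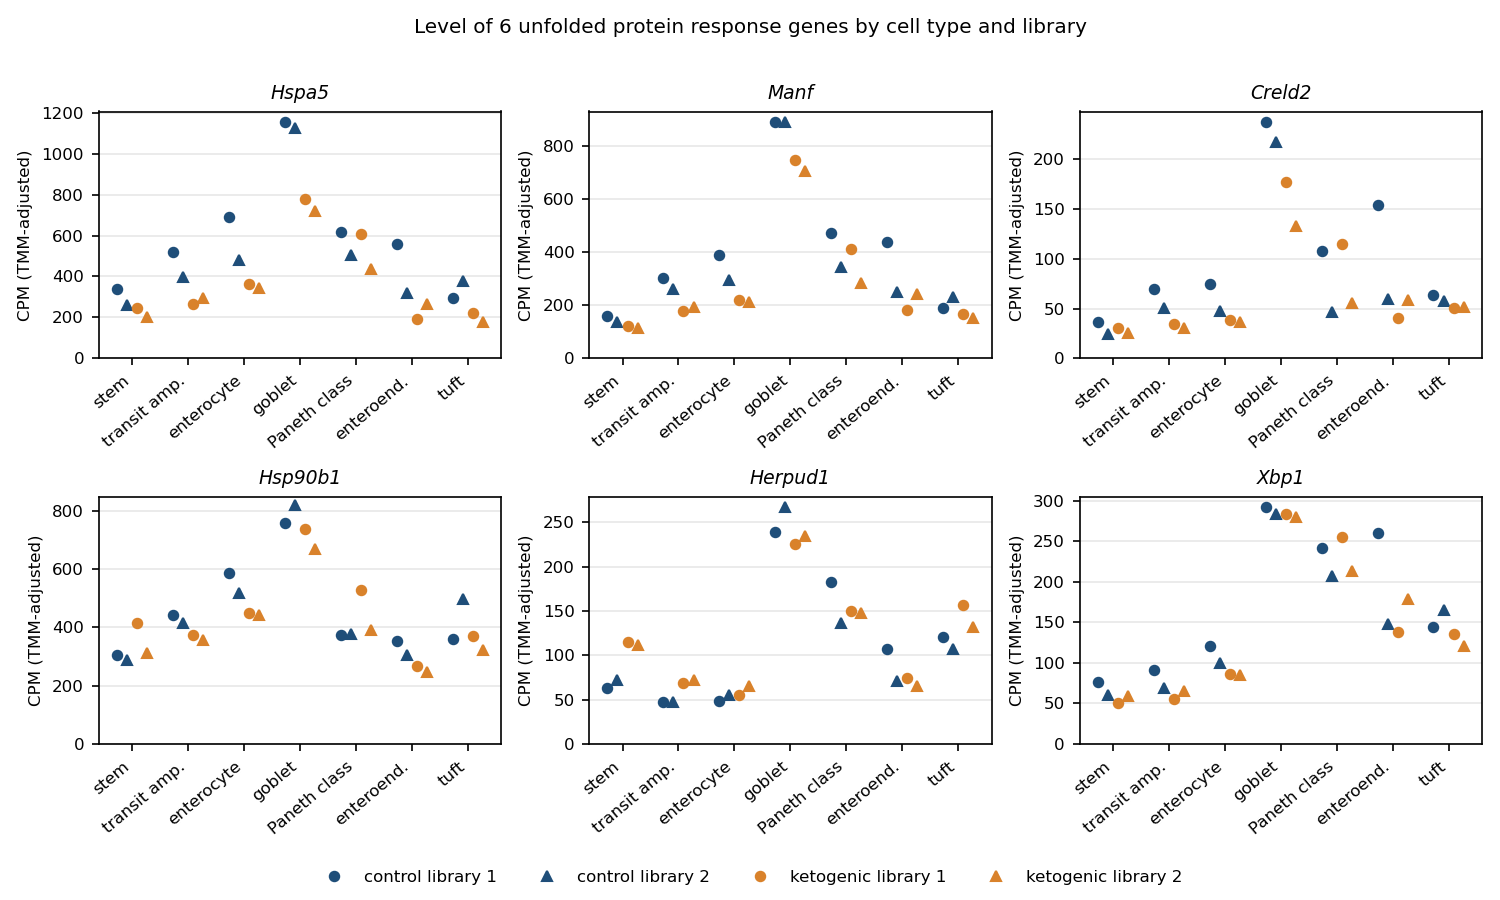
CPM (y axis) of 6 genes in the 7 cell types (x axis), 1 point per library, circles and triangles for libraries 1 and 2 and colour for diet. Hspa5 lies lower in both ketogenic libraries in 6 of the 7 types, Herpud1 lies higher in stem and transit amplifying cells, and Xbp1 of goblet cells stays within 280 to 292 CPM.

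The diet comparison asked whether the ketogenic diet changed these transcripts in the whole epithelium and in each type. Chaperone transcripts were lower on the ketogenic diet in several types, with calls in transit amplifying and goblet cells, and Herpud1 was higher in stem and transit amplifying cells. In transit amplifying cells, 3 genes fell (Hspa5, Manf and Creld2) and 1 rose (Herpud1) of 28 tested, where edgeR called 0.715% of all genes tested at an adjusted p under 0.05 (0.258% lower and 0.457% higher). In goblet cells 2 fell (Hspa5 and Creld2) and none rose of 30, against 0.521% of all genes (0.21% lower and 0.31% higher). In stem cells 1 rose (Herpud1) of 27, against 0.336% (0.0736% lower and 0.263% higher). Elsewhere no gene of the set was called by edgeR: 0 of 32 in all cells together (0.172% of all genes called), 0 of 31 in enterocytes (0.18%), 0 of 23 in the Paneth class (0.44%), 0 of 25 in enteroendocrine cells (0.0582%) and 0 of 23 in tuft cells (0.0144%). In these 5 the genes at an unadjusted p under 0.05, higher and lower, numbered 1 and 9, 0 and 11, 2 and 0, 0 and 10, and 0 and 4, where all genes gave 5.62% and 5.33%, 4.46% and 5.45%, 4.6% and 3.08%, 2.18% and 2.43%, and 2.59% and 2.76%. In stem, transit amplifying and goblet cells they numbered 4 and 4, 1 and 10, and 1 and 10, against 3.61% and 2.82%, 4.77% and 4.44%, and 4.43% and 4.54% of all genes. DESeq2 called 2 genes of the set in all cells and 3 in enterocytes, each lower, and none in the other 3, where it gave 9 of the 23 Paneth class genes no adjusted p. Genes left untested in a type had too few UMIs there.

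Hspa5 was lower in both ketogenic libraries in all cells together and in 6 of the 7 types. Over all cells the control libraries had 703 and 517 CPM and the ketogenic ones 392 and 370 CPM (log2 fold change -0.68 ± 0.15, edgeR adjusted p = 0.204). In goblet cells it had 1156 and 1123 CPM in the control and 777 and 719 CPM in the ketogenic libraries, and in transit amplifying cells 520 and 399 against 264 and 293 CPM. The diets did not overlap in either type, and the gene fell by 0.61 ± 0.08 on the log2 scale in goblet cells (edgeR adjusted p = 0.00224) and by 0.72 ± 0.12 in transit amplifying cells (edgeR adjusted p = 0.0141). The goblet call held with each library left out in turn, while the transit amplifying call was lost without ketogenic library 1 (a log2 fold change of -0.65, edgeR adjusted p = 0.165, in a range from 1.99e-10 to 0.165 over its alternatives).

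In enterocytes Hspa5 had 693 and 483 CPM in control and 364 and 345 CPM in ketogenic libraries, a log2 fold change of -0.73 ± 0.17 that missed the threshold (edgeR adjusted p = 0.221). Control library 1 stood apart there: without it the log2 fold change was -0.44, and without control library 2 it was -0.98 with an edgeR adjusted p of 0.000447, in a range up to 0.805 over its alternatives. That library also had the lowest sum of the 7 stem markers in enterocytes, 472 CPM against 752 to 798 CPM in the other 3. Its enterocytes had the highest levels of each cytosolic heat shock gene followed below except Hsp90aa1. Hspa1a had 7.91 CPM there against 0.355 to 2.38 CPM in the other libraries, and Hsph1 96.8 against 48.3 to 64.3 CPM. The part of these traits in the result was not tested. Stem cells had 339 and 262 CPM in control and 245 and 203 CPM in ketogenic libraries (log2 fold change -0.42 ± 0.13, edgeR adjusted p = 0.344). Tuft cells had 294 and 380 against 221 and 177 CPM and enteroendocrine cells 560 and 319 against 193 and 264 CPM, with log2 fold changes of -0.76 and -0.94 and edgeR adjusted p of 0.253 and 0.433. In each of these types the diets did not overlap, whereas in the Paneth class, with 616 and 506 against 606 and 438 CPM, they did.

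Creld2, a disulfide isomerase-like protein secreted under stress, had 70.0 and 50.9 CPM in control and 34.6 and 30.8 CPM in ketogenic transit amplifying cells, and 237 and 217 against 177 and 132 CPM in goblet cells. The diets were separate in both types, and the falls were 0.88 ± 0.16 (edgeR adjusted p = 0.02) and 0.55 ± 0.11 (edgeR adjusted p = 0.0476) on the log2 scale. The first call was lost without ketogenic library 1 (-0.97, edgeR adjusted p = 0.0826) or ketogenic library 2 (-0.79, edgeR adjusted p = 0.0531), and the second without ketogenic library 2 (-0.36, edgeR adjusted p = 0.224). The goblet call of Creld2 was also lost with DESeq2 (adjusted p = 0.0897). Over their alternatives the adjusted p ran from 1.77e-10 to 0.0826 and from 1.84e-06 to 0.224. Manf had 302 and 262 CPM in control and 179 and 193 CPM in ketogenic transit amplifying cells and fell by 0.59 ± 0.10 (edgeR adjusted p = 0.0142), a call lost without ketogenic library 1 (-0.54, edgeR adjusted p = 0.184, in a range from 3.38e-06 to 0.184). In goblet cells Manf had 889 CPM in each control and 746 and 705 CPM in the ketogenic libraries, separate but not called (-0.29 ± 0.08, edgeR adjusted p = 0.17). Manf overlaps Rbm15b on the same strand in GENCODE M21, so the counting could have left some of its reads unassigned.

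Herpud1 encodes a membrane protein that organises the degradation complex. It moved the other way: stem cells had 63.0 and 72.2 CPM in control and 115 and 112 CPM in ketogenic libraries, and transit amplifying cells 47.1 and 47.5 against 68.6 and 72.2 CPM. Both ketogenic libraries exceeded both control libraries in each type, with rises of 0.73 ± 0.13 (edgeR adjusted p = 0.00556) and 0.58 ± 0.11 (edgeR adjusted p = 0.029) on the log2 scale. The stem call held with each library left out in turn. The transit amplifying call was lost without ketogenic library 1 (0.61, edgeR adjusted p = 0.141), without ketogenic library 2 (0.54, edgeR adjusted p = 0.145) and without the 6% of cells with most UMIs (0.54, edgeR adjusted p = 0.0559), and DESeq2 called neither (adjusted p = 0.0881 and 0.257). The adjusted p ran from 4.73e-06 to 0.0881 in stem and from 0.00156 to 0.257 in transit amplifying cells over their alternatives. In goblet cells, where it was highest, Herpud1 had 239 and 267 CPM in control and 226 and 235 CPM in ketogenic libraries (-0.14 ± 0.09, edgeR adjusted p = 0.698). Enterocytes had 48.4 and 55.5 against 55.7 and 65.2 CPM, with a log2 fold change of 0.22 ± 0.13. Tuft cells had 120 and 107 against 157 and 131 CPM (0.35 ± 0.17, edgeR adjusted p = 0.871). In the Paneth class (182 and 136 against 150 and 148 CPM) and in enteroendocrine cells (107 and 71.0 against 74.1 and 65.1 CPM) the diets overlapped.

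**Figure D3:**
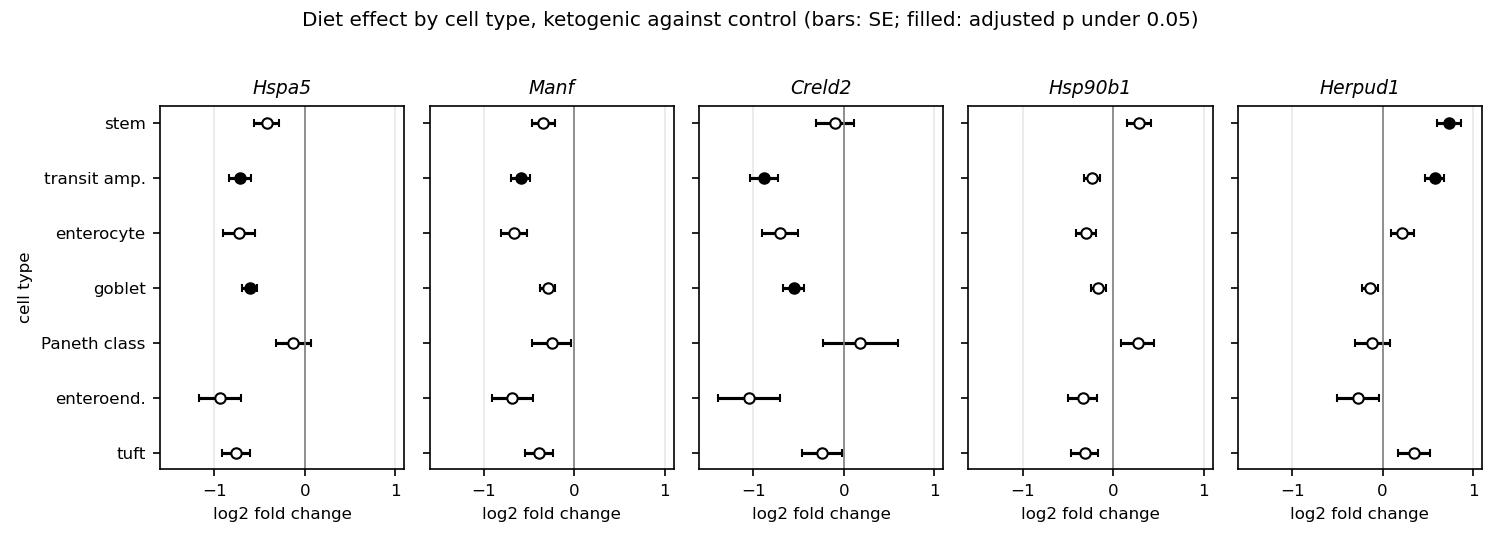
Log2 fold change of ketogenic against control (x axis) for 5 genes in the 7 cell types (y axis), with bars of 1 SE and filled points at an edgeR adjusted p under 0.05. Hspa5 lies below 0 in all 7 types with filled points in 2, whereas Herpud1 has filled points above 0 in stem and transit amplifying cells and lies below 0 in goblet, Paneth class and enteroendocrine cells.

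The chaperones and cochaperones were mostly lower on the ketogenic diet, and no test compared them with the other roles. All 9 had a negative log2 fold change in enterocytes and in goblet cells, 8 of 9 in transit amplifying cells and 8 of 8 tested in enteroendocrine cells. Their medians were -0.42 in enterocytes, -0.29 in goblet cells, -0.43 in transit amplifying cells and -0.89 in enteroendocrine cells. The diets were apart, with both ketogenic libraries lower, for 8 of 9 chaperones in enterocytes, 9 of 9 in goblet cells, 8 of 9 in transit amplifying cells and 7 of 8 in enteroendocrine cells, where 20.5%, 19.1%, 19.6% and 16.3% of all genes were. Of these 4 types, goblet cells called 2 chaperones lower, transit amplifying cells 3 and the other 2 none. Chaperones of tuft cells summed to 1172 and 1400 CPM in control against 1062 and 910 CPM in ketogenic libraries, with none called.

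In stem cells the chaperones were mixed, with 3 of 9 positive and a median of -0.06, and in the Paneth class 5 of 9 were positive with a median of 0.18, which was 0.02 without the cells that held 30% or more of their UMIs in Paneth markers. Dnajb11, a BiP cochaperone named here, like Pdia3 and Derl2 below, after its values were seen, had 110 and 87.9 CPM in control against 69.4 and 69.3 CPM in ketogenic transit amplifying cells, a log2 fold change of -0.51 ± 0.12 with an edgeR adjusted p of 0.0986. It was lower without overlap in stem cells, enterocytes and goblet cells too, at -0.44, -0.57 and -0.21, none called.

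The disulfide isomerases and lectin chaperones showed no call in any type, and their medians ran from -0.38 in enteroendocrine cells to 0.33 in the Paneth class. Pdia3, an isomerase that works with calnexin and calreticulin, had the opposite sign to BiP in goblet cells, with 501 and 484 CPM in control and 583 and 547 CPM in ketogenic libraries (0.20 ± 0.08, edgeR adjusted p = 0.446). In the Paneth class all 5 of these genes were higher in both ketogenic libraries than in both control libraries, where 21.5% of all genes were, and none was called. The Paneth class also differed in its cells: those rich in Paneth markers by that limit numbered 1 and 2 in the control and 10 and 8 in the ketogenic libraries. Without them the median of these 5 genes was 0.33, as with them, and 4 of the 5 still lay higher in both ketogenic libraries, while the diets overlapped for Canx.

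Among degradation genes Herpud1 was the one called. Derl2, a channel derlin, was lower without overlap in stem, transit amplifying, enterocyte and goblet sums, by log2 fold changes of -0.43, -0.38, -0.43 and -0.38, with edgeR adjusted p of at least 0.196. In goblet cells 6 of the 7 degradation genes lay lower in both ketogenic libraries, where 19.1% of all genes did, with a median of -0.38. Derl3 was among them at 28 and 27 UMIs in control and 25 and 10 UMIs in ketogenic libraries (-0.81 ± 0.38, edgeR adjusted p = 0.56).

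Sensors and transcription factors gave no call in any type. Ern2 of goblet cells had 137 and 146 CPM in control and 130 and 133 CPM in ketogenic libraries, a log2 fold change of -0.10 ± 0.09. It overlapped between the diets in the Paneth class, with 80.7 and 109 against 113 and 95.7 CPM, and in tuft cells it had 37.8 and 30.1 against 27.5 and 27.4 CPM (-0.29 ± 0.29). Xbp1 had 292 and 283 against 284 and 280 CPM in goblet cells, which overlapped, and 121 and 99.6 against 86.5 and 84.5 CPM in enterocytes, which did not (-0.36 ± 0.12, edgeR adjusted p = 0.401). In transit amplifying cells it had 90.8 and 68.8 against 55.7 and 65.0 CPM (-0.39 ± 0.14, edgeR adjusted p = 0.359). Stem cells (75.8 and 60.0 against 51.1 and 59.6 CPM) and tuft cells (144 and 165 against 135 and 121 CPM) had no overlap either, and neither was called. Paneth class cells (242 and 207 against 255 and 213 CPM) and enteroendocrine cells (260 and 148 against 138 and 179 CPM) overlapped.

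Atf4 differed little. In goblet cells it had 181 and 175 CPM in control and 171 and 161 CPM in ketogenic libraries (-0.11 ± 0.09), and in enterocytes 92.7 and 88.7 against 84.3 and 76.8 CPM (-0.17 ± 0.10). Stem cells had 76.8 and 80.5 against 75.4 and 68.0 CPM and transit amplifying cells 75.3 and 78.1 against 69.4 and 68.8 CPM, a difference of -0.15 in each on the log2 scale. In tuft cells the sign was opposite, with 65.3 and 61.6 against 82.6 and 84.6 CPM (0.40 ± 0.20, edgeR adjusted p = 0.871).

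Ddit3 overlapped between the diets in each of the 6 types tested. In enterocytes it had 9.60 and 7.86 against 8.79 and 7.39 CPM, and in goblet cells 25.4 and 13.7 against 12.9 and 15.8 CPM. Of the ATF4 targets, Asns was tested in 7 types, Sesn2 in 5 and Trib3 in 1 (enterocytes), with no call, and Chac1 had too few UMIs for a test in every type.

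**Figure D4:**
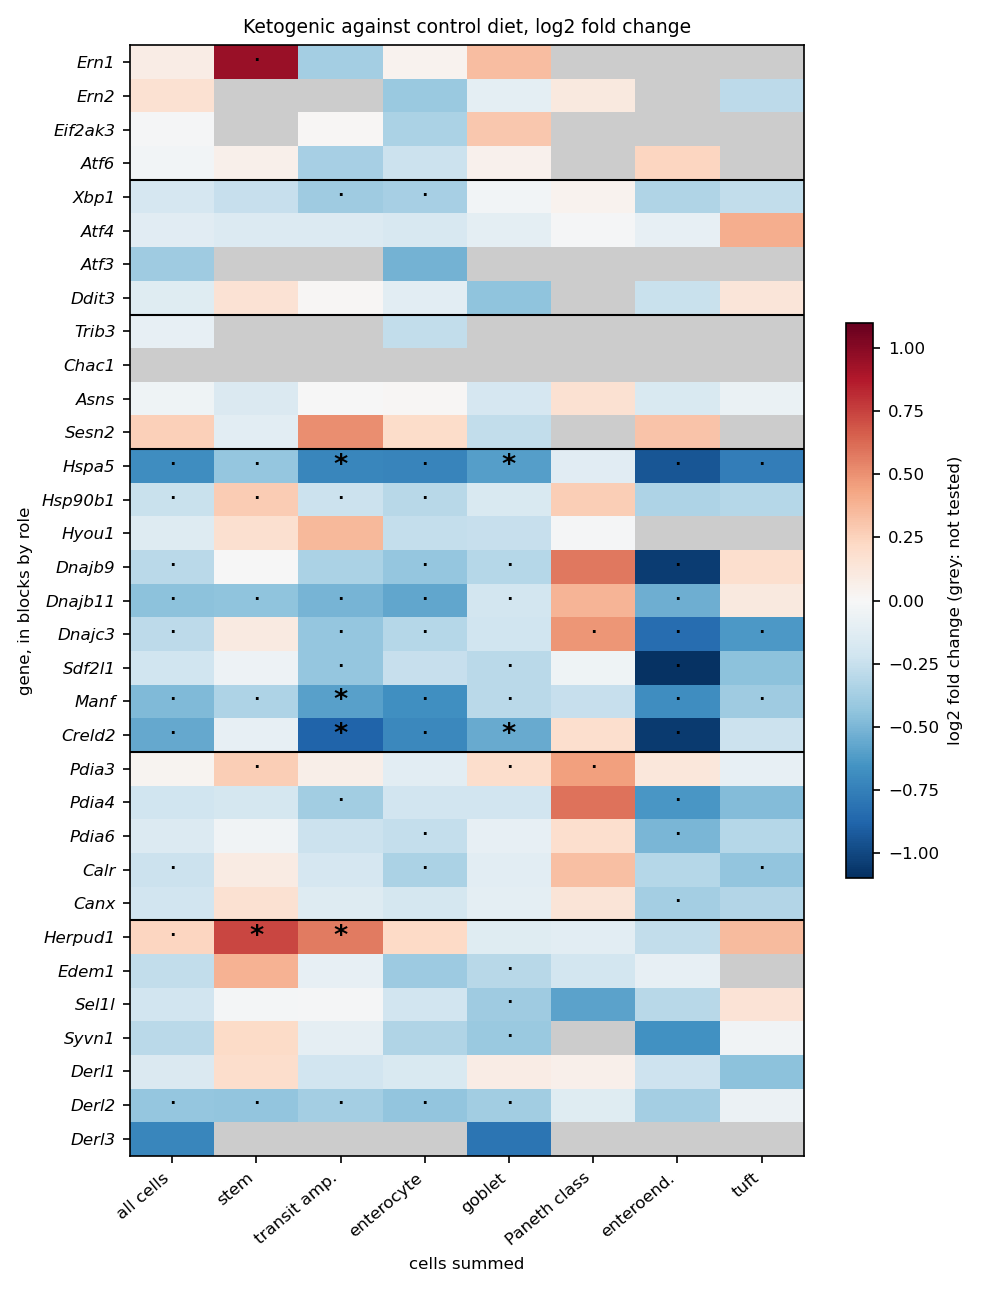
Log2 fold change of ketogenic against control (colour, blue lower and red higher) for the 33 genes (y axis, in blocks by role) in all cells and in the 7 cell types (x axis), with stars at an edgeR adjusted p under 0.05, dots at an unadjusted p under 0.05 and grey where a gene was not tested. The 7 stars lie on Hspa5, Manf, Creld2 and Herpud1, and the Paneth class column is mostly red among chaperones and isomerases where the enterocyte and enteroendocrine columns are blue.

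Over all tested genes of the set, the median log2 fold change was -0.21 in all cells, -0.22 in transit amplifying cells, -0.27 in enterocytes, -0.21 in goblet cells, -0.34 in enteroendocrine cells and -0.27 in tuft cells. It was -0.01 in stem cells and 0.11 in the Paneth class, and over all genes tested the median lay between -0.01 and 0.02 in each comparison. In all cells together 17 of 32 were lower in both ketogenic libraries (21.1% of all genes were) and 2 were higher (22.4%), and 5 of the 32 had a positive change. In stem cells 6 of 27 were lower (17.6% of all genes) and 7 higher (17.4%).

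Whether the diet effect differed between types was tested for each type against enterocytes by fitting the 8 sums of both types together, with a term for each library. Hsp90b1, which encodes the chaperone GRP94, was the 1 gene of the set called, in the comparison of stem cells with enterocytes, where 29 of the set were tested and 0.259% of all genes were called. It had 306 and 289 CPM in control and 415 and 312 CPM in ketogenic stem cells, and 585 and 516 against 449 and 443 CPM in enterocytes. The diets did not overlap in either type and lay in opposite order: the log2 fold change was 0.28 ± 0.13 in stem cells and -0.30 ± 0.11 in enterocytes, neither called on its own. The difference was 0.59 ± 0.13 (edgeR adjusted p = 0.0259).

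This difference was lost with DESeq2 (adjusted p = 0.0588, with 22 of the 29 genes given no adjusted p), without ketogenic library 1 (0.41, edgeR adjusted p = 0.973) and without ketogenic library 2 (0.76, edgeR adjusted p = 0.0687). Its adjusted p ran from 0.000152 to 0.973 over the alternatives. Ketogenic library 1 holds the highest stem value, and it also had the highest share of mitochondrial UMIs in stem cells, 13.6% against 10.4% to 12.1% in the others, while with cells under 10% mitochondrial UMIs alone the difference was 0.68 (edgeR adjusted p = 0.00216). In GENCODE M21 the gene models Gm15344 and Gm25745 overlap Hsp90b1 on its strand. Of the 29 genes tested between these types, 25 had a more positive change in stem cells, and the median difference was 0.33, against 0.02 over all genes tested. At an unadjusted p under 0.05 there were 11 higher and 0 lower, against 4.43% and 2.51% of all genes. For Herpud1 the difference was 0.54 ± 0.16 and for Creld2 0.60 ± 0.21, with edgeR adjusted p of 0.222 and 0.427.

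Against enterocytes, no gene of the set was called in the diet effects of transit amplifying (0.0871% of all genes called), goblet (0.61%), Paneth class (0.344%), enteroendocrine (0.22%) or tuft cells (0.203%), of 29, 31, 31, 30 and 29 tested. At an unadjusted p under 0.05 the counts, higher and lower, were 2 and 0, 7 and 1, 11 and 0, 0 and 1, and 3 and 0, where all genes gave 3.24% and 2.08%, 5.96% and 3.21%, 2.98% and 1.93%, 2.84% and 1.99%, and 3.12% and 2.35%. For Hspa5 the difference from enterocytes was 0.00 ± 0.10 in transit amplifying and 0.12 ± 0.12 in goblet cells, so its call there and its miss in enterocytes were not shown to differ.

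A wider list of 116 other endoplasmic reticulum and stress genes (translocon and signal peptidase, oligosaccharyl transferase, further folding and degradation factors, further ATF4 and integrated stress response genes, membrane-bound transcription factors, and vesicle traffic) was followed in the same fits. Its median log2 fold change was -0.10 in all cells, -0.13 in enterocytes, -0.09 in transit amplifying, -0.07 in goblet, -0.11 in enteroendocrine and -0.03 in tuft cells. It was 0.01 in stem cells and 0.15 in the Paneth class, and no test compared these medians with those of the 33 genes. It gave 1 call each in stem cells (106 tested), transit amplifying cells (105) and goblet cells (111), all 3 of Creb3l3, and none in enterocytes (111 tested).

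Creb3l3 encodes a membrane-bound transcription factor that is processed like ATF6 and acts on lipid genes in liver and gut. It had 2.03 and 3.98 CPM in control and 28.5 and 19.8 CPM in ketogenic stem cells, 3.86 and 1.79 against 36.5 and 15.4 CPM in transit amplifying cells, and 1.03 and 1.05 against 10.0 and 7.23 CPM in goblet cells. The diets were far apart in each of the 3 types, with rises in the last 2 of 3.23 ± 0.44 (edgeR adjusted p = 0.00384) and 3.01 ± 0.43 (edgeR adjusted p = 0.00293). Enterocytes held more of it, 22.2 and 14.6 CPM in control against 139 and 51.1 CPM in ketogenic libraries. The diets were separate there too, and the log2 fold change of 2.37 ± 0.45 missed the threshold (edgeR adjusted p = 0.128). Nupr1, a small stress-induced chromatin protein, was called higher in the Paneth class at 114 and 78.9 against 270 and 324 CPM (1.60 ± 0.20, edgeR adjusted p = 0.00511). Without the cells that held 30% or more of their UMIs in Paneth markers its change was 0.12 (edgeR adjusted p = 0.958). The call was also lost without ketogenic library 1 (1.77, edgeR adjusted p = 0.231) and without the 6% of cells with most UMIs (0.60, edgeR adjusted p = 0.577), and over its alternatives the adjusted p ran from 5.69e-13 to 0.958.

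Among differences from enterocytes, Kdelr2, a receptor that retrieves escaped chaperones, and Spcs2, a signal peptidase subunit, were called more positive in the Paneth class (0.91 and 0.78), and Agr2, a mucin-folding isomerase, more negative in tuft cells (-1.17). DESeq2 called none of these 3. The differences of Kdelr2 and Spcs2 were not recomputed without the cells rich in Paneth markers. Kdelr2 was lost without control library 1 or either ketogenic library (0.72 to 0.90, edgeR adjusted p from 0.0622 to 0.565), and Spcs2 with any 1 library left out (0.67 to 0.87, 0.138 to 1.00). Agr2 fell to -0.34 without control library 2 (edgeR adjusted p = 0.726) and was also lost without ketogenic library 1 (-1.33, 0.0588) or 2 (-0.97, 0.600). Over their alternatives, DESeq2 included, the adjusted p of these 3 genes reached 1.00.

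Sums of other stress genes are given beside these results. The 6 cytosolic heat shock genes, which answer protein damage outside the endoplasmic reticulum, summed to 3981 and 3729 CPM in control and 3229 and 3196 CPM in ketogenic transit amplifying cells, 3327 and 3099 against 2768 and 2785 CPM in enterocytes and 2213 and 2031 against 1805 and 1721 CPM in goblet cells. Tuft cells had 4865 and 4738 against 3698 and 3548 CPM and the Paneth class 1190 and 1187 against 987 and 1080 CPM, and the diets were separate in these 5 types. They overlapped in stem cells, at 3574 and 3493 against 3540 and 3457 CPM. In enteroendocrine cells the sums were 4554 and 4694 against 4528 and 4114 CPM, both ketogenic values lying lower. Hspa8 supplied most of each sum, so the median log2 fold change of the tested heat shock genes is given too. It was -0.25 in transit amplifying cells, -0.49 in enterocytes and -0.28 in goblet cells, where the chaperone medians given above were negative too. Stem cells had -0.14 and tuft cells -0.60. In the Paneth class the heat shock median was -0.31, beside a chaperone median of 0.18. In enteroendocrine cells it was -0.45, beside a chaperone median of -0.89. Hsph1 in transit amplifying cells, with 99.0 and 80.6 against 55.4 and 56.4 CPM, was called lower by edgeR (-0.68 ± 0.12, adjusted p = 0.0172), and no other of these genes was called in any type. The 6 immediate early genes, a sign of dissociation stress, summed to 133 and 122 against 125 and 143 CPM in transit amplifying and 150 and 138 against 157 and 155 CPM in goblet cells. In enterocytes they were higher in both ketogenic libraries, at 139 and 144 against 154 and 165 CPM, and so were the sums over all cells, at 149 and 146 against 156 and 168 CPM. None of these genes was called in any type, and Jun in enterocytes had a log2 fold change of 0.74 ± 0.14 (edgeR adjusted p = 0.135). Plasma and B cells, which carry a large secretory apparatus, left little trace: 5 of their 7 markers were among the gene names, 3 of these 5 had 0 UMIs in goblet cells, and the 5 summed to at most 1.58 CPM there and 0.716 CPM in transit amplifying cells. T cell markers in enterocytes summed to 7.31 and 9.83 CPM in control and 0.0692 and 18.0 CPM in ketogenic libraries. The part of the heat shock and immediate early genes in the chaperone results was not tested.

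The promoter matches were set beside the diet changes as a description. Of the 11 genes with an ERSE or ERSE-II, 10 were tested in transit amplifying cells, where 1 (Herpud1) had a positive change and the median was -0.23, against -0.12 for the 14 tested genes whose window held neither. In goblet cells the medians were -0.21 for 11 genes and -0.24 for 14, and in enterocytes -0.32 for 10 and -0.23 for 16. In the same order they were -0.52 and -0.27 in enteroendocrine and -0.31 and -0.07 in tuft cells. They were 0.09 and -0.06 in stem cells and 0.18 and 0.01 in the Paneth class. Hspa5, Creld2 and Hsp90b1, whose ERSE are printed above, had log2 fold changes of -0.72, -0.88 and -0.23 in transit amplifying cells, and Herpud1, with ERSE-II and CARE, 0.58. Of the other 4 genes with a CARE, Asns alone was tested there, with a log2 fold change of -0.01.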

How the data were processed

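Small intestinal cells of mice on 2 diets were profiled in 4 libraries. For 15053 cells the authors deposited a matrix of raw UMI counts (genes by cells) and a table naming each cell's library and type. Per the submitters' processing notes, Cell Ranger 2.1.0 and mm10 were used. The sources used here do not give the filters on cells, the doublet handling, the gene annotation or how types were assigned, and no doublet caller was run. Counts were summed per library and type and tested with edgeR 4.0.16 in R 4.3.3 (quasi-likelihood test, TMM, filterByExpr by diet, two-sided), with Benjamini-Hochberg adjustment over all genes tested and a threshold of 0.05. The method was tested on simulated data. CPM used TMM-adjusted totals. Each result was recomputed with RLE size factors, DESeq2 1.42.0, all genes unfiltered, cells under 10% mitochondrial UMIs and thinned sums. A replicate block was used for all cells and single types, and not for differences from enterocytes. An equal mix of types was run for all cells alone, and leaving out cells rich in Paneth markers for the Paneth class alone. Each result was also recomputed leaving out the 6% of cells with most UMIs, as a limit on doublets, and leaving out each library. The lone library of a diet is then assumed to vary like the others. Replicate libraries differed beyond sampling noise (chi-square over degrees of freedom of 28.3 and 21.3). The genes, lists and tests were chosen with earlier results of these data known. Values in each library are given for called genes and for Hspa5, Xbp1, Atf4, Ddit3, Herpud1, Ern2 and Derl3, the others by counts and ranges, and from the wider list up to 4 called genes per type. Gene overlaps come from GENCODE M21.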

Additional observations from a re-analysis of the deposited data

Results flagged for a closer look

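The diet effect on Hsp90b1 differed between stem cells and enterocytes by 0.59 on the log2 scale, in a direct test of the difference (edgeR adjusted p = 0.0259). Both ketogenic libraries lay above both control libraries in stem cells and below them in enterocytes, and the call was lost when either ketogenic library was left out and with DESeq2. No group held 4 or more libraries, so single libraries were not examined for lying far from the rest of their group.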

How the results depend on the processing

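Counts below are genes of the set called in a comparison. No called gene changed direction under any alternative run. Some uncalled genes did. Without the cells rich in Paneth markers, Xbp1 of the Paneth class went from 0.04 to -0.02 and Asns from 0.17 to -0.11 (log2 fold change). DESeq2 called 2 in all cells, 0 in stem cells, 3 in enterocytes, 1 in goblet cells and 0 in the difference between stem cells and enterocytes, where it gave 22 of 29 genes no adjusted p (8 of 27 in stem cells). Without a filter on low counts the numbers were 3 in all cells, 7 in transit amplifying cells, 4 in enterocytes, 1 in goblet cells, 3 in enteroendocrine cells and 1 in the difference between goblet cells and enterocytes. With cells under 10% mitochondrial UMIs they were 2 in stem cells, 1 in goblet cells and 2 in the stem cell difference. Thinned sums called 1 in goblet cells. RLE size factors moved none of these counts by over 1.5 times. Neither did the equal mix of types in all cells or the removal of Paneth-rich cells in the Paneth class. The median of all genes lay within 0.06 (log2) of 0 under every alternative. With 1 library left out, the counts ranged from 0 to 5 in all cells, 1 to 2 in stem cells, 0 to 9 in transit amplifying cells, 0 to 11 in enterocytes, 1 to 6 in goblet cells, 0 to 8 in enteroendocrine cells and 0 to 2 in tuft cells. For differences from enterocytes they ranged from 0 to 5 in stem and in goblet cells and from 0 to 1 in Paneth class and in enteroendocrine cells. The upper ends came without control library 2, except in tuft cells, where they came without control library 1, and the 0 of transit amplifying cells came without ketogenic library 1. The cause was not tested. Calls over all genes moved more, from 4 to 760 in enterocytes, 37 to 290 in transit amplifying cells, 24 to 189 in goblet cells and 14 to 100 in stem cells.

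The labels do not say whether a replicate number marks a shared animal, litter or day. Deviations of same-numbered libraries correlated from -0.04 to 0.08 across types, and with so few libraries this cannot decide whether they were paired. With a replicate block the counts were 2 in stem cells, 7 in transit amplifying cells and 3 in enteroendocrine cells.

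Depth limits the Paneth class, enteroendocrine and tuft cells, where 23 to 25 of the 33 genes were tested.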
